A study of Sus scrofa with 24 samples.

Results

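The transcripts of the mitochondrial uncoupling proteins UCP2 and UCP3 were described in subcutaneous adipose tissue of 24 pigs. Their probes were found by the gene name in the array files or by the symbol of the listed transcript record. The search returned 2 of the 5505 gene symbols that could be named on the array. UCP3 had 2 probes and UCP2 had 1, so the description rests on 3 of 43603 probes. The 3 probes were well above background on all 24 arrays, and none of their spots was saturated.

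UCP2 and UCP3 belong to the mitochondrial carrier family of the inner mitochondrial membrane. The family takes its name from UCP1 of brown fat, which lets protons return to the matrix without ATP synthesis and so releases heat, and pigs lack a functional UCP1. UCP3 is known mainly from skeletal muscle and brown fat. In skeletal muscle its transcript rises with fasting and with the supply of fatty acids. UCP2 is found in many tissues, immune cells among them, and has been studied for its part in substrate use and in the formation of reactive oxygen species.

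The groups were pigs of lines selected on residual feed intake, the difference between the feed an animal takes and the amount foreseen from its gain and upkeep. RFIneg pigs were of the low line and ate without restriction. RFIplR pigs were of the high line and received feed at the level that RFIneg pigs ate. RFIpl pigs were of the high line and ate without restriction. Each group held 8 pigs of 115 kg body weight with 1 one-colour array per pig, so line and feeding level were compared in whole tissue at 1 weight. RFIplR and RFIpl share the line and differ in feeding, RFIneg and RFIplR share the feeding level and differ in line, and RFIneg and RFIpl are different lines that both ate freely.

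The probe sequences are shown because the measurements are those of these oligonucleotides and not of whole transcripts. The array files list the first UCP3 probe at position 2182 of its transcript record and the second at position 1062, with no statement of how the position is counted. Bases 13 to 42 of the first UCP3 probe, bases 1 to 30 of the UCP2 probe and the whole 60-base second UCP3 probe read 5′ to 3′ as follows, with capitals for AATAAA, the canonical polyadenylation signal.
UCP3 probe A_72_P146406: ggattatgactcAATAAAggatgcgacacc
UCP3 probe A_72_P443167: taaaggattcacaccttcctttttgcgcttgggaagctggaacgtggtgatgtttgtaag
UCP2 probe A_72_P165336: atcagccaggatctcaagtcctccgtcctt
AATAAA began at base 25 of the first UCP3 probe. The same 6 letters stood in 9.60% of the 43603 probe sequences as listed and in 13.4% when both strands were read. The longest run of bases that any of the 3 probes shared with another of them was 8. The longest shared with any other probe on the array, named or unnamed, was 15. In the RefSeq gene order of assembly Sscrofa11.1, UCP2 and UCP3 lie on chromosome 9 with 1 long non-coding RNA gene, LOC110255396, between them. The nearest other genes were DNAJB13 and PAAF1 beyond UCP2, and C2CD3 and LOC110255397 beyond UCP3. None of these 5 neighbours had a named probe here.

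Values are log2 of the scanner's processed intensity minus log2 of the array's 75th percentile, so 0 is the level of the 75th percentile probe on that array. Probes differ in how well they bind, so no probe's level is set against another's. The arrays fell into 17 bright ones, with a 75th percentile of 416 to 665 intensity units, and 7 dim ones with 69.5 to 94.6. The dim arrays numbered 2 in RFIneg, 3 in RFIplR and 2 in RFIpl. They were all scanned on 1 of the 3 scan days. Of 11 adipocyte markers listed, 10 were measured, and each was well above background on at least 1 array of every group. The array RFIpl 2 carried skeletal muscle transcripts far above the rest, with a summed level of 13 muscle markers of 1606 times the 75th percentile, against 12.7 to 46.3 on the other 23 arrays.

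UCP3 transcript was higher in RFIneg and in RFIplR than in RFIpl, by about the same amount, and RFIneg and RFIplR lay close together. UCP2 transcript averaged lower in RFIneg and in RFIplR than in RFIpl, by a smaller amount. The means of the pair thus lay on opposite sides of RFIpl in both groups. Both genes were chosen with earlier results of the RFIneg and RFIpl contrast known, so that contrast is given as a description without a test.

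At the first UCP3 probe, the lowest, median and highest values were 4.74, 5.94 and 6.63 in RFIneg, 5.36, 6.06 and 6.52 in RFIplR, and 3.20, 3.99 and 5.80 in RFIpl. The groups overlapped, but 6 of the 8 RFIpl arrays lay below the lowest RFIneg array, and 6 lay below the lowest RFIplR array. The arrays RFIpl 3 at 5.80 and RFIpl 2 at 5.54 were the RFIpl arrays inside the range of the other groups. Group means were 5.88 ± 0.61 in RFIneg, 6.03 ± 0.40 in RFIplR and 4.31 ± 0.92 in RFIpl (SD, n = 8 each). All 8 RFIneg arrays and all 8 RFIplR arrays lay above the RFIpl mean.

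At the second UCP3 probe RFIpl again had the lowest mean, with RFIneg slightly above RFIplR. Its lowest, median and highest values were 0.70, 2.37 and 2.88 in RFIneg, 0.99, 2.19 and 2.82 in RFIplR, and -0.58, 0.28 and 2.35 in RFIpl. RFIpl 3 was again the highest RFIpl array and RFIpl 2 the next, at 1.46. Group means were 2.17 ± 0.72 in RFIneg, 2.05 ± 0.64 in RFIplR and 0.61 ± 0.93 in RFIpl. The 2 UCP3 probes followed each other across arrays at a Pearson r of 0.981 over the 17 bright arrays and 0.974 over the 7 dim ones, which share array and RNA sample.

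UCP2 showed lowest, median and highest values of 0.24, 0.93 and 1.66 in RFIneg, -0.05, 1.11 and 1.99 in RFIplR, and 0.63, 1.80 and 2.27 in RFIpl. Its groups overlapped more than those of UCP3. All 8 RFIneg arrays and 7 of the 8 RFIplR arrays lay below the RFIpl mean, and RFIpl 3, the highest RFIpl array for UCP3, was the lowest for UCP2. Group means were 1.04 ± 0.53 in RFIneg, 1.02 ± 0.71 in RFIplR and 1.71 ± 0.52 in RFIpl. The dim arrays averaged higher than the bright ones in every group, so these ranges and SDs mix both classes. Means were 1.64 on dim and 0.84 on bright arrays in RFIneg, 1.57 and 0.69 in RFIplR, and 1.95 and 1.63 in RFIpl. In bulk tissue, fewer cells that carry a transcript and less of it per cell cannot be told apart.

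**Figure D1:**
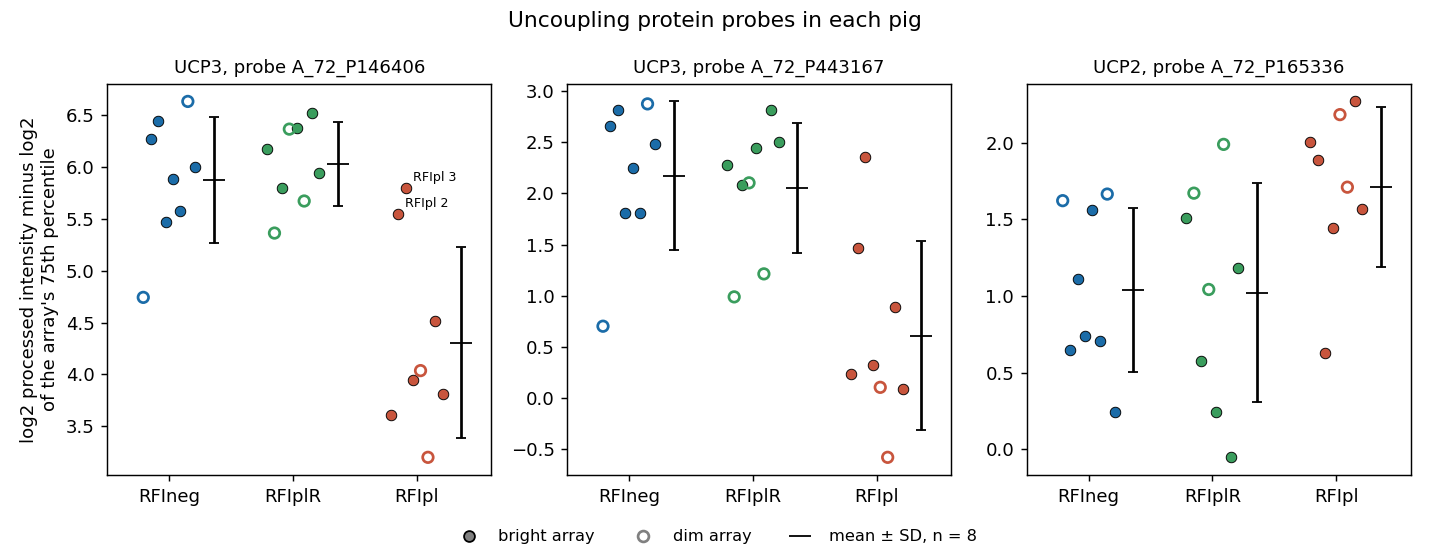
Log2 values of the 2 UCP3 probes and the UCP2 probe in each pig, with the groups in the order RFIneg, RFIplR and RFIpl, filled points for bright arrays, open points for dim ones, and bars for the mean ± SD of 8 arrays. The y axis is log2 processed intensity minus log2 of the array's 75th percentile, with its own range in each panel. RFIpl 3 and RFIpl 2, at 5.80 and 5.54 on the first UCP3 probe, stand above the other 6 RFIpl arrays.

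RFIneg and RFIpl are the lines compared under free access to feed. UCP3 stood 1.57 log2 units higher in RFIneg than in RFIpl at the first probe (SE 0.33), a ratio of 2.97. The second probe also differed by 1.57 (SE 0.38). For UCP2 the difference was -0.67 (SE 0.30). These SEs take no account of the choice of the genes by this contrast, so no interval is given. Across all 28601 probes kept, limma called 42 higher in RFIneg, or 0.147%, and 17 lower, or 0.0594%, at an adjusted p under 0.05. That background is given for scale only, since this contrast chose the genes. Ranges of the 2 groups did not overlap for 0.0245% of probes, and those of the UCP probes did.

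The difference in UCP3 between RFIneg and RFIpl had the same sign in every batch that held both groups. At the first probe it was 1.40 within the bright arrays and 2.07 within the dim arrays. It ran over 0.90 to 1.76 within the 3 scan days and over 0.71 to 3.06 within the 5 slides with both groups. UCP2 differed by -0.80 within the bright arrays, by -0.30 within the dim arrays and by -0.77 to -0.26 within scan days. It was lower in RFIneg on 4 of the 5 slides and stood at 0.09 on the other one. Several of these batches held 1 array of a group, so they show directions rather than errors. The batches overlap, and scan day 3 and slide 7 held the same pair, RFIneg 3 and RFIpl 2. They also divide the arrays of the contrast that chose the genes, so the shared sign is a description only.

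RFIplR and RFIpl differ in feeding level within the high line. UCP3 rose in RFIplR by 1.72 log2 units at the first probe (SE 0.33, 95% interval 1.03 to 2.41), a ratio of 3.29, and limma, with p-values adjusted by the Benjamini-Hochberg method across the 28601 probes, gave an adjusted p of 0.0254. It was 1 of the 52 probes called higher in RFIplR, 0.182% of those tested. The second UCP3 probe differed by 1.44 (SE 0.38, 95% interval 0.67 to 2.22) and did not pass (limma adjusted p = 0.102). The comparison shares the 8 RFIpl arrays with the contrast that chose the genes, so it is not independent of that choice.

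UCP2 did not pass this test. It stood at -0.69 in RFIplR relative to RFIpl (SE 0.30, 95% interval -1.30 to -0.08, limma adjusted p = 0.496), where 33 probes, 0.115% of those tested, were called lower. With the brightness class of the array as a block, the UCP2 difference was -0.78 and passed (limma adjusted p = 0.0454), while UCP3 stood at 1.78 at the first probe (limma adjusted p = 0.00147) and 1.56 at the second (limma adjusted p = 0.00385). Without RFIpl 2, that fit gave UCP2 at -0.73 and no call (limma adjusted p = 0.0678), and without RFIpl 7 and 8 it gave -0.65 and no call (limma adjusted p = 0.132). With all arrays, 5.8% of probes were called higher and 4.51% lower.

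Within the bright arrays UCP3 was higher in RFIplR by 1.63 at the first probe, and within the dim arrays by 2.18. Within scan days the difference ran over 0.63 to 1.91, and within the 5 slides that held both groups over 0.63 to 2.92. Both values of 0.63 came from the same pair of arrays, RFIplR 1 and RFIpl 2, the array with muscle transcripts. Some of the other batches also held 1 array of a group. UCP2 was lower in RFIplR in every batch, by 0.94 within the bright arrays and 0.38 within the dim arrays on the log2 scale. The UCP3 call was lost in 8 of 24 other settings, with the mean over both UCP3 probes counted as a setting. Among the 8 were slide as a block (1.71, limma adjusted p = 0.0752) and normexp background correction (1.46, limma adjusted p = 0.282). The call at the first probe was also lost without RFIpl 1, 4, 5 or 8 or without RFIplR 4, 5 or 7. Limma adjusted p was then 0.0541 to 0.0724, although the difference stayed between 1.56 and 1.93 whichever array was left out.

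RFIneg and RFIplR were of different lines at the same feeding level. UCP3 differed by -0.15 between RFIneg and RFIplR at the first probe (SE 0.33, limma adjusted p = 0.999), with a 95% interval of -0.84 to 0.54. The second probe stood at 0.12, with an interval of -0.66 to 0.90 (limma adjusted p = 0.999). UCP2 differed by 0.017, with an interval of -0.59 to 0.63 (limma adjusted p = 1.0). The intervals leave room for a difference of about that size in either direction. Limma called 0 of 28601 probes here, 0% of those tested, with 604 at an unadjusted p under 0.05, and the setting with array weights called 4.

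**Figure D2:**
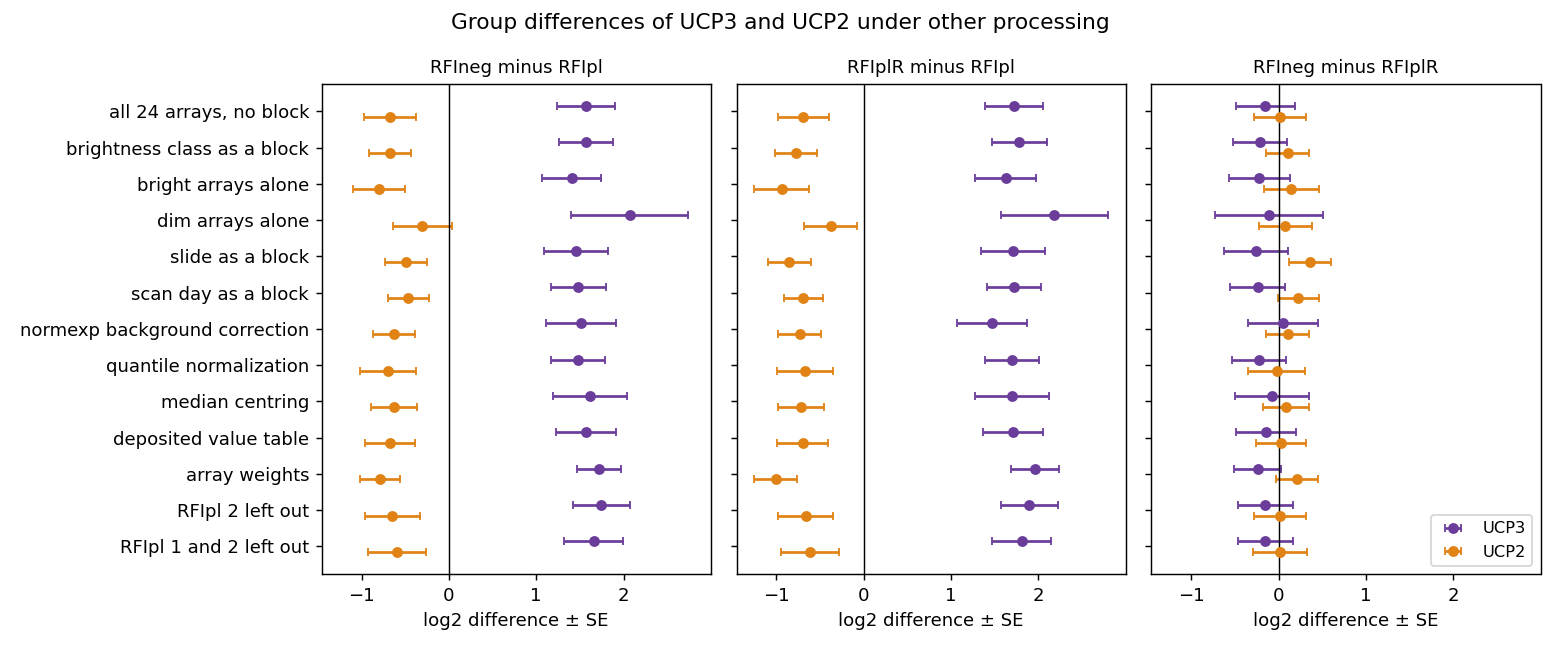
Log2 differences of UCP3 at its first probe and of UCP2 between groups, with points for the estimate and bars for the SE, in 13 ways of processing the arrays. UCP3 lies at 1.40 to 2.07 for RFIneg minus RFIpl and at 1.46 to 2.18 for RFIplR minus RFIpl, UCP2 lies below 0 in both, and both genes lie between -0.26 and 0.36 for RFIneg minus RFIplR.

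The 2 RFIpl arrays with high UCP3 were unlike each other in the marker lists. RFIpl 2 had the summed muscle level of 1606 given above, with UCP2 at 1.88, inside the range of the other RFIpl arrays. RFIpl 3 had a summed muscle level of 23.9, the highest adipocyte level of its group and the lowest UCP2. None of the 13 measured muscle markers, of 23 listed, was below background on all arrays. Without RFIpl 2 the UCP3 difference at the first probe was 1.75 for RFIneg and 1.90 for RFIplR (limma adjusted p = 0.0188 in RFIplR), larger than with it.

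The median of the adipocyte list stood above RFIpl in RFIneg and in RFIplR. The summed level of the 10 measured adipocyte markers of 11 listed was 933 to 1360 in RFIneg, 825 to 1321 in RFIplR and 729 to 1308 in RFIpl, in units of the 75th percentile. RFIpl 3 held the RFIpl maximum, and the next RFIpl array had 1027. Of these markers, 10 were above 0 in difference for RFIneg minus RFIpl and 7 for RFIplR minus RFIpl, with medians of 0.37 and 0.24 against a median over all probes of -0.01 and 0.01. None passed in the fit without blocks. At an unadjusted p under 0.05, limma had 6 of the 35 measured markers of the 4 marker lists for RFIneg minus RFIpl, 17.1% against 6.88% of all probes, and 3 for RFIplR minus RFIpl, 8.57% against 8.2%. With brightness as a block, 5 of the 10 adipocyte markers passed as higher in RFIneg, where 4.29% of all probes did. In RFIplR 3 of the 10 passed as higher, where 5.8% of all probes did. AQP7, a glycerol channel, and PLIN1, a lipid droplet coat protein, passed in both. No marker of the other lists passed in that fit for either comparison. Their part in the UCP3 difference was not tested.

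The summed level of the 10 measured macrophage and leukocyte markers of 15 listed was 5.92 to 16.2 in RFIneg, 5.12 to 18.6 in RFIplR and 6.20 to 18.6 in RFIpl. Medians of their differences from RFIpl were 0.01 in both groups, and none passed with or without the brightness block. CD163, a haemoglobin scavenger receptor of macrophages, stood at -0.86 in RFIplR relative to RFIpl (limma adjusted p = 0.742). Across the 17 bright arrays, UCP2 and the mean of this list had a Pearson r of 0.16 and a Spearman rho of 0.19. Over the 7 dim arrays r was -0.13. These values hold the group difference of UCP2, so no p is given. With group means subtracted, r was 0.21 over the bright arrays (permutation p = 0.420, adjusted over 6 relations p = 0.630). Spearman rho was then 0.21 (permutation p = 0.409). Over the dim arrays r became -0.09 (permutation p = 0.831). The permutations moved values across groups after the subtraction, so these p-values are approximate. No relation of UCP2 with this list could be seen at this number of arrays. The 2 measured keratinocyte markers, DSP and SFN, of 8 listed had summed levels of 0.229 to 0.641 in RFIneg, 0.286 to 1.13 in RFIplR and 0.280 to 58.0 in RFIpl. The arrays RFIpl 7 at 58.0 and RFIpl 8 at 20.9 stood above all others, and the list medians relative to RFIpl were -1.82 in RFIneg and -1.47 in RFIplR. UCP2 was 2.27 on RFIpl 7, the highest of its group, and 1.57 on RFIpl 8. Without both arrays the UCP2 difference was -0.60 in RFIneg and -0.62 in RFIplR (limma adjusted p = 0.882 in RFIplR), and that of UCP3 at the first probe was 1.52 in RFIneg and 1.67 in RFIplR (limma adjusted p = 0.111 in RFIplR). The part of these markers in the differences was not tested.

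UCP3 and UCP2 lay in opposite order across the arrays. Over the 17 bright arrays Pearson r was -0.65 and Spearman rho -0.65, and r was -0.57 without the 2 arrays farthest from the median. Over the 7 dim arrays r was -0.47 and rho -0.50, and r turned to 0.15 without 2 such arrays. These values hold the group differences that chose the genes, so no p is given. With group means subtracted, r was -0.32 over the bright arrays (permutation p = 0.219, adjusted over 6 relations p = 0.574) and -0.13 over the dim ones (permutation p = 0.789). Spearman rho was then -0.29 (permutation p = 0.250) and -0.04 (permutation p = 0.964). The permutations moved values across groups after the subtraction, so these p-values are approximate. The relation was thus not detectable within groups.

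UCP3 and the mean of the muscle list had a Pearson r of -0.18 and a Spearman rho of -0.63 over the bright arrays, again with the group differences in them. With group means subtracted these became 0.28 (permutation p = 0.287, adjusted over 6 relations p = 0.574) and -0.01 (permutation p = 0.969), and r was -0.18 without the 2 arrays farthest from the median. Over the 7 dim arrays r was -0.50 with group means subtracted (permutation p = 0.250). The p-values are approximate here too, since values were moved across groups. Within groups, no relation of UCP3 with muscle transcripts was detected on these arrays.

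**Figure D3:**
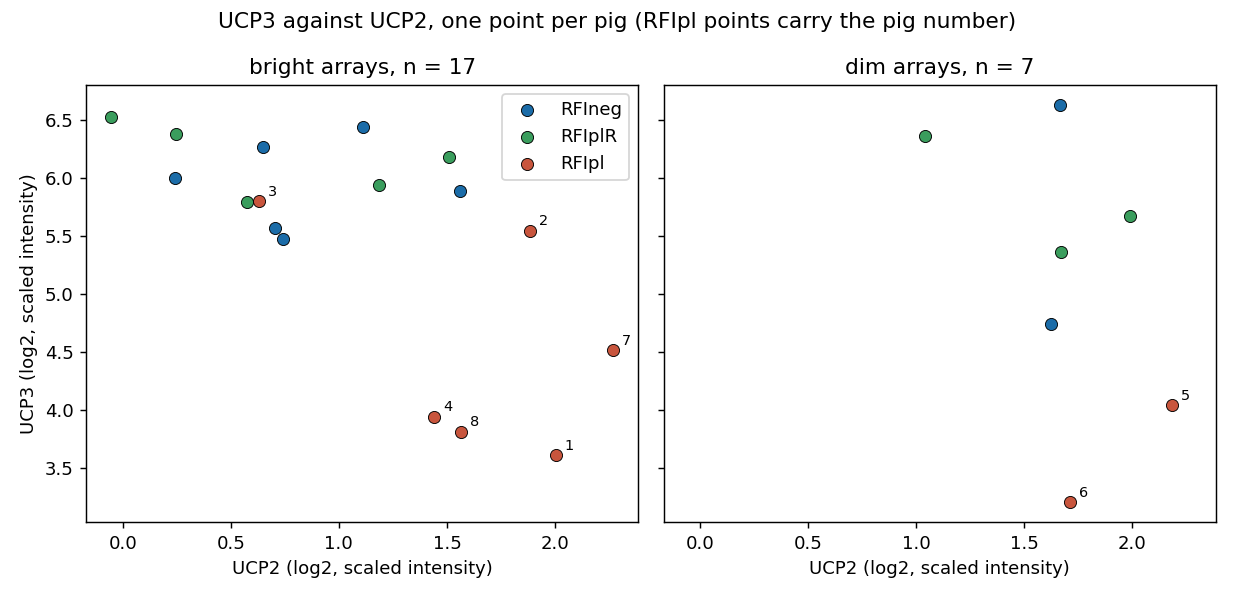
UCP3 at its first probe (y axis) against UCP2 (x axis), both as log2 scaled intensity, with 1 point per pig, in the 17 bright arrays on the left and the 7 dim ones on the right. Numbers name the RFIpl pigs, of which 3 and 2 lie among or near the points of the other groups and the other 6 lie low for UCP3.

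Likeness to UCP3 was measured as Pearson r over the 24 arrays after the mean of each brightness class was subtracted, with 1 probe for each of 4323 symbols. Ranked first was LMCD1, a LIM domain protein, at 0.908, followed by SNX16, a sorting nexin of endosomes, at 0.906. LOC100156231 followed at 0.899, FBXW4, an F-box protein, at 0.880, STOML1, a stomatin-like protein, at 0.877, and KCTD9, a BTB domain protein, at 0.872. The arrays share groups, slides and scan days, and the values are a description. SNX16 averaged 1.26 in RFIneg, 1.22 in RFIplR and 0.58 in RFIpl. It stood 0.68 above RFIpl in RFIneg and 0.64 above it in RFIplR. Group differences are part of the likeness, and r of SNX16 with UCP3 was 0.764 with group means subtracted, so no test is given for these genes. UCP2 stood at rank 4068 of the 4323 for UCP3, with an r of -0.573.

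The genes most like UCP2 by the same measure had lower r. They were SNU13, a protein of the spliceosome and of nucleolar particles, at 0.835, PMM1, a phosphomannomutase, at 0.817, and SF3A1, a splicing factor, at 0.812. PAPSS2, which makes the sulfate donor of the cell, followed at 0.799, PDCD11, a ribosomal RNA processing factor, at 0.794, and MTUS2, a microtubule-associated protein, at 0.787. The largest difference among them was that of MTUS2, at -1.06 in RFIneg and -1.37 in RFIplR relative to RFIpl. MTUS2 also had the lowest level of these genes, with means of -3.91 in RFIneg, -4.22 in RFIplR and -2.85 in RFIpl. Its difference thus rests on weak signal.

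Other genes of uncoupling, of its control and of fat oxidation were read from 5 lists. No member of any list passed in any of the 3 comparisons in the fit without blocks, while probes called made up 0.206% of all for RFIneg minus RFIpl, 0.297% for RFIplR minus RFIpl and 0% for RFIneg minus RFIplR. At an unadjusted p under 0.05, limma had 3 of the 54 measured genes for RFIneg minus RFIpl, 5.56% against 6.88% of all probes. It had 4 for RFIplR minus RFIpl, 7.41% against 8.2%, and 4 for RFIneg minus RFIplR, 7.41% against 2.11%. For RFIneg minus RFIplR the list medians lay between -0.17 and 0.23, and the genes of smallest p were SLC25A27 (0.55) and SLC25A6 (0.11), GATM (-0.63) and DIO2 (-0.31), PPARA (-1.43) and SIRT3 (0.66), ACADL (0.37) and CD36 (0.43), and TXNRD2 (0.36) and GPX4 (0.38). Members that passed with the brightness class as a block are given with each list, against the background of that fit, which was 4.29% higher and 2.31% lower for RFIneg minus RFIpl and 5.8% and 4.51% for RFIplR minus RFIpl.

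Of 7 carriers that can leak protons, 3 were measured and UCP1 was not. All 3 lay below RFIpl in both groups, with medians of -0.20 for RFIneg and -0.37 for RFIplR. SLC25A27, known as UCP4 from the brain, had means of -1.75 in RFIplR and -1.07 in RFIpl, a difference of -0.68 (SE 0.22, limma adjusted p = 0.224). With brightness as a block it fell by 0.70 and was the carrier that passed (limma adjusted p = 0.0307). SLC25A5 and SLC25A6, which exchange ADP and ATP, differed by -0.37 and -0.31 in RFIplR and by -0.28 and -0.20 in RFIneg relative to RFIpl, and passed in neither fit.

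Of 21 thermogenic adipocyte genes, 11 were measured, with median differences of -0.04 for RFIneg and 0.15 for RFIplR. COX7A1, a cytochrome c oxidase subunit, had means of 5.35 in RFIneg and 5.01 in RFIpl, a difference of 0.34 (limma adjusted p = 0.771), and stood at 0.30 in RFIplR relative to RFIpl (limma adjusted p = 0.777). GATM, an enzyme of creatine synthesis, stood at -0.37 in RFIneg. PPARGC1A, a coactivator of mitochondrial genes, stood at -0.07 in RFIneg and 0.15 in RFIplR, and CIDEA, a lipid droplet protein of brown and white adipocytes, at 0.19 and 0.03. SLN, a regulator of the muscle calcium pump, stood at -2.01 in RFIplR and at -0.79 without RFIpl 2, the array with muscle transcripts. None passed with the brightness block either.

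Of 19 regulators of uncoupling protein genes, 13 were measured, with medians of 0.14 for RFIneg and -0.11 for RFIplR. PPARA, the fatty acid receptor that drives oxidation genes in liver, averaged -2.40 in RFIneg, -0.97 in RFIplR and -2.20 in RFIpl. Its difference was 1.23 for RFIplR minus RFIpl (SE 0.48, limma adjusted p = 0.401) and -0.20 for RFIneg minus RFIpl. With brightness as a block, PPARA rose by 1.34 in RFIplR (limma adjusted p = 0.0497) and SIRT1, a NAD-dependent deacetylase, by 0.73 (limma adjusted p = 0.00278). Without the block SIRT1 stood at 0.53 in RFIplR (limma adjusted p = 0.938). SIRT3, a mitochondrial deacetylase, stood at 0.21 in RFIneg and -0.45 in RFIplR. PPARD and PPARG, the receptors of the same family, stood at 0.26 and -0.07 in RFIneg and at -0.35 and -0.23 in RFIplR relative to RFIpl. The 2 probes of PPARD differed in sign for RFIneg minus RFIpl.

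Of 27 fatty acid handling genes, 18 were measured, with medians of 0.14 for RFIneg and -0.10 for RFIplR. ACADL, an acyl-CoA dehydrogenase of long chains, averaged 3.95 in RFIneg and 3.09 in RFIpl, a difference of 0.86 (SE 0.25, limma adjusted p = 0.206), and it passed with brightness as a block (limma adjusted p = 0.0173). In RFIplR it stood at 0.48. LPL, the lipase that frees fatty acids from circulating lipoproteins, stood at 0.45 in RFIneg (limma adjusted p = 0.69). PDK4, a kinase that holds back glucose oxidation and that often rises beside UCP3 in fasted muscle, differed by 0.87 in RFIneg and 0.77 in RFIplR without passing in either fit. CPT1A and CPT1B, which join acyl groups to carnitine for entry into mitochondria, lay at -0.39 and -0.32 in RFIneg and at -0.60 and -0.50 in RFIplR. In RFIplR, 2 of the 3 CPT1B probes shared that sign. FABP3, a fatty acid binding protein of muscle and heart, differed by -0.77 in RFIplR and fell by 0.59 with brightness as a block (limma adjusted p = 0.0191). RFIpl 2, the array with muscle transcripts, was among the RFIpl arrays in both fits. Its part in the FABP3 and CPT1B differences was not tested.

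Of 12 genes of mitochondrial oxidant defence, 9 were measured, with medians of 0.39 for RFIneg and 0.13 for RFIplR. TXNRD2, the mitochondrial thioredoxin reductase, averaged 1.15 in RFIneg and 0.66 in RFIpl, a difference of 0.49 (limma adjusted p = 0.571). With brightness as a block, CAT, the peroxisomal catalase, rose by 0.56 in RFIneg and 0.52 in RFIplR (limma adjusted p = 0.00311 and 0.0021). IDH2, a source of mitochondrial NADPH, fell by 0.44 in RFIneg and 0.47 in RFIplR in that fit (limma adjusted p = 0.0122 and 0.00521), and TXNRD2 passed in RFIneg (limma adjusted p = 0.0227). Without the block IDH2 stood at -0.60 and CAT at 0.38 in RFIplR relative to RFIpl.

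**Figure D4:**
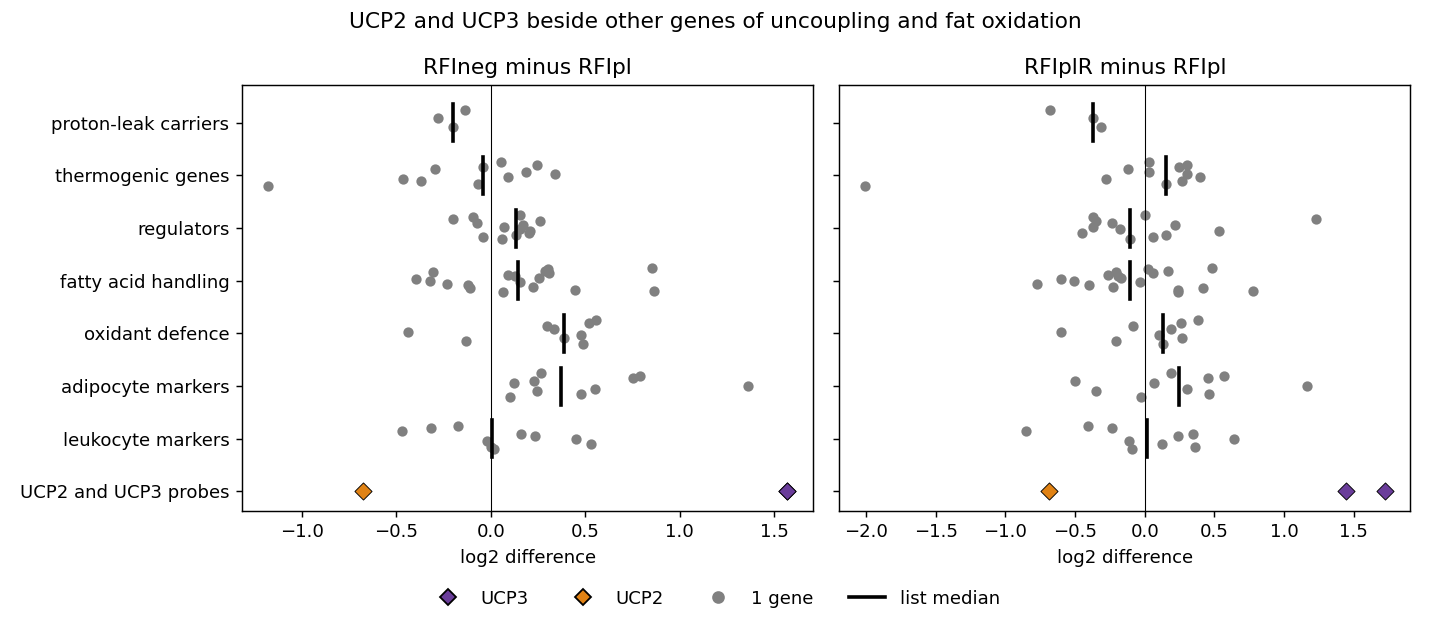
Log2 differences from RFIpl of the measured genes of 7 lists, for RFIneg on the left and RFIplR on the right, with 1 grey point per gene, a bar for the list median and diamonds for the UCP probes. The UCP3 diamonds, at 1.57 and 1.57 on the left and 1.72 and 1.44 on the right, lie to the right of every grey point.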

How the data were processed

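RNA of 24 pigs was hybridised to one-colour Cy3 Agilent arrays. Per the file headers, the deposited intensity of each spot was written by the scanner software Feature Extraction 10.7.3.1, which had taken off the background and a spatial trend. It was unscaled between arrays. The deposited value table holds log2 values of 24582 probes, which matched log2 of that intensity centred on each array's median (SD of the difference at most 4.5e-10). The submitters' processing notes name R 2.10.0.

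Here log2 of the intensity (floor 1) was scaled by the 75th percentile of each array. Probes well above background on 6 or more arrays of a group and missing on at most 6 were kept, 28601 of 43603. limma 3.58.1 in R 4.3.3 was fitted over all 24 arrays without blocks, two-sided, with Benjamini-Hochberg adjustment and a threshold of 0.05. The fit was tested on simulated data. A gene was read at its kept probe of highest mean signal, and UCP3 also at its other probe. Of the probes, 12322 had 1 symbol, 38 several and 31243 none, through RefSeq names where accessions matched. Precision is limited by the 8 arrays per group. Relations used 1e+05 permutations, or all of them under 10 arrays. Members and lists were chosen with earlier results of these data known. From each list, genes past the test were to be named, or else up to 4 with the smallest p. PPARGC1A, CIDEA, PPARG, PDK4 and CPT1A were added after values were seen. The alternatives were other blocks, background corrections, scalings and filters, the deposited table, array weights and arrays left out.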

Additional observations from a re-analysis of the deposited data

Results flagged for a closer look

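One of the 36 sets of 8 values checked had a value far from the rest. The mean log2 value of the skeletal muscle list was 5.2 on RFIpl 2, against -0.17 on the nearest RFIpl array and -2.61 on the farthest, a gap of 0.688 of the range where the limit is 0.526. Chance flags about 1 in 20 such sets. No group of UCP3 or UCP2 values met that limit.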

How the results depend on the processing

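UCP3 kept its direction in both comparisons with RFIpl in all 24 other settings and with each array left out, and UCP2 in all 23. For RFIneg minus RFIpl, UCP3 ran over 1.41 to 1.78 and UCP2 over -0.83 to -0.56 with 1 array left out. For RFIplR minus RFIpl these ranges were 1.56 to 1.93 (limma adjusted p = 0.00198 to 0.0724) and -0.84 to -0.54 (0.233 to 0.761). The UCP3 call in RFIplR was lost with the replicate number as a block (1.72, limma adjusted p = 0.057), in the dim arrays alone (2.18, 0.192), with slide as a block (1.71, 0.0752), normexp (1.46, 0.282), median centring (1.70, 0.136), without RFIpl 1 and 2 (1.81, 0.0645), without RFIpl 7 and 8 (1.67, 0.111) and with only the 2 groups fitted (1.72, 0.0857). Leaving out RFIpl 1, 4, 5 or 8 or RFIplR 4, 5 or 7 also ended it (0.0724, 0.0622, 0.0541, 0.0682, 0.0611, 0.0598 and 0.0625). The second UCP3 probe passed in RFIplR in the fits with brightness as a block (limma adjusted p = 0.000307 to 0.0263). It also passed in the bright arrays, with scan day and with array weights. With slide (0.154), normexp (0.499), quantile scaling (0.071) or the deposited table (0.113) it did not pass. With 1 array left out it passed only without RFIpl 3 (0.0136). UCP2 in RFIplR passed with brightness (-0.78, 0.0454), with slide and brightness (-0.89, 0.0318), with array weights (-1.01, 0.0109) and with brightness and RFIpl 3 left out (-0.90, 0.0138), while brightness with RFIpl 2 left out gave -0.73 (0.0678) and with RFIpl 7 and 8 left out -0.65 (0.132).

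For RFIneg minus RFIplR, signs turned for UCP3 with normexp (0.051) and for UCP2 with quantile scaling (-0.024), and arrays left out gave -0.26 to 0.012 and -0.14 to 0.16. Within groups of the bright arrays, r of UCP3 with UCP2 was -0.32 and with the muscle list 0.28. Where a call or sign changed, the cause was not tested.

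Probes called for RFIneg minus RFIpl numbered 0 with the replicate block (1534 at an unadjusted p under 0.05), slide (2412), normexp (1240), the dim arrays (2713), without RFIpl 1 and 2 (1431), without RFIpl 7 and 8 (1668) and with only the 2 groups (1882). They numbered 2 without a filter, 3 with median centring (0 higher), 39 in the deposited table (34 higher), 296 in the bright arrays, 1888 with brightness and 3000 with array weights. For RFIplR minus RFIpl the counts were 0 in the dim arrays (5026) and without RFIpl 7 and 8 (1796), 1 without RFIpl 1 and 2, 2 with the replicate block, 4 with normexp (3 higher), 21 with median centring, 25 with slide, 26 with the 2 groups, 38 without a filter, 134 with a stricter filter, 258 with scan day, 933 in the bright arrays, 2938 with array weights and 2950 with brightness. Settings added after seeing the data called 414 and 1687 with slide and brightness, and with brightness 1477 and 3111 without RFIpl 2, 548 and 1909 without RFIpl 1 and 2, 3399 and 3672 without RFIpl 3, and 878 and 1784 without RFIpl 7 and 8. Leaving out RFIpl 7 and 8 was also added then. Array weights gave 4 for RFIneg minus RFIplR. With 1 array left out, counts were 1 to 283 for RFIneg minus RFIpl, lowest without RFIpl 8, and 22 to 296 for RFIplR minus RFIpl, lowest without RFIpl 1, both highest without RFIpl 3, and 0 to 0 for RFIneg minus RFIplR. The first count fell to 5 or fewer without RFIneg 2, 3, 4, 5, 6 or 8 or RFIpl 1, 4, 5 or 8, and to 13 without RFIpl 7. The second fell to 55 or fewer without RFIneg 2, 3, 4 or 5, RFIpl 1, 4, 5, 6, 7 or 8, or RFIplR 1, 2, 4, 5, 7 or 8.

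Whether replicate numbers pair arrays across groups could not be told. Deviations of same-numbered arrays from their group means correlated at -0.82 to 0.88, with 12 of 24 over 0.1. The correlation was positive where both arrays were of the same brightness class and negative where the classes differed. The check therefore could not separate pairing from brightness. Normexp moved the median over all probes by 0.14 for RFIplR minus RFIpl and -0.13 for RFIneg minus RFIplR, and no filter by 0.13 and -0.09. UCP2 has 1 probe, so its mean over probes was not run. The dim arrays lie closer to background, with 43.1% to 61.5% of probes well above it, against 52.2% to 79.9% on the bright ones.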
